A study of Arabidopsis thaliana with 12 samples.

Results

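The genes described here are AUR1 (AT4G32830) and AUR2 (AT2G25880), which encode Aurora kinases, MCM7 (AT4G02060), which encodes a subunit of the replicative helicase, and HTR12 (AT1G01370), which encodes the histone H3 variant of centromeres. They are 4 of the 16554 genes that have a probe set (a summary of several probes for 1 transcript region) paired with them alone. The annotation pairs 17504 of the 38408 probe sets with a gene. They were chosen by name, and where a gene had several probe sets the one with the highest mean was to stand for it. Each of the 4 genes had exactly 1 probe set, which carried no other gene. MCM7 is listed in the annotation under its older Arabidopsis symbol PRL (PROLIFERA) and was matched by gene ID.

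The RNA was that of entire Col-0 seedlings of Arabidopsis thaliana, kept for 10 days in liquid culture at 26 °C with 16 h of light and 8 h of dark. Sucrose was at 1% for all 12 samples. The 12 arrays formed 4 groups of 3, which were wild type in DMSO (the solvent alone), wild type with 30 µM hyperphyllin, the mutant amp1-13 with DMSO, and amp1-13 with 30 µM hyperphyllin. DMSO was at 1% in all 4 groups, so no seedlings were free of solvent. amp1-13 is 1 mutant allele of AMP1, a gene for a putative carboxypeptidase of the endoplasmic reticulum. Hyperphyllin is a synthetic compound described as making wild-type seedlings resemble amp1 mutants. The transcript of AMP1 was not analysed here, and the mutant label was therefore not checked through it.

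Aurora kinases act on chromosomes and on the spindle during mitosis, and AUR1 and AUR2 of Arabidopsis are closely related members that mark the spindle and the forming cell plate. MCM7 is loaded with its partner subunits onto replication origins before DNA synthesis, and PROLIFERA was described in Arabidopsis as a gene of dividing cells. HTR12, also called CENH3, replaces ordinary histone H3 in centromeric nucleosomes and carries the kinetochore. Transcripts of such genes are abundant in meristems and young organs, and loss of AMP1 is known for an enlarged shoot meristem and faster leaf formation. In RNA from whole seedlings, a smaller share of dividing cells and less transcript per dividing cell cannot be told apart.

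Values are the deposited log2 expression values, so a difference of 1 is a doubling. Differences are given with the standard error (SE) of a linear model over the 12 arrays fitted with limma, and adjusted p values are limma's with Benjamini-Hochberg adjustment over all 17504 probe sets. The words rose and fell are used where that adjusted p was under 0.05. The labels call the 3 samples of a group biological replicates.

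The array medians lay between 4.052 and 4.185. On principal component 1, with 40.4% of the variance, wild-type DMSO arrays 2 and 3 scored 43.9 and 47.7, against -28.1 to 0.78 for all others. DMSO array 1 of the same group scored -9.82, and its mean correlation was 0.973 with its own group and 0.987 with the arrays of other groups. Whether its label is right was not determined, so the wild-type DMSO means and every difference from them hold only as far as that label does. Results that rest on it are therefore given with and without it. Of the markers of green tissue 4 of 6 were measured, with summed linear levels between 2978 and 4148. Of the root markers 2 of 7 were measured, the root hair expansin genes EXPA7 and EXPA18, at 38.3 to 158. Of the shoot meristem markers 2 of 4 were measured, CLV3 and LAS, at 9.56 to 23.2. Their log2 values were at most 3.74 and 3.45, below the array median on every array.

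AUR1 was at 6.39, 5.32 and 4.94 on DMSO arrays 1, 2 and 3 of wild type and at 5.67, 5.86 and 5.32 on the hyperphyllin arrays of wild type. In amp1-13 it was at 6.06, 5.996 and 6.07 in DMSO and at 6.20, 6.41 and 6.48 in hyperphyllin. All 6 amp1-13 arrays lay above the 3 hyperphyllin arrays of wild type and above DMSO arrays 2 and 3 of wild type, while DMSO array 1 of wild type lay among the hyperphyllin arrays of amp1-13. From low to high the group means were those of wild type with DMSO (5.55 ± 0.75, SD, n = 3), wild type with hyperphyllin (5.62 ± 0.27), amp1-13 with DMSO (6.04 ± 0.04) and amp1-13 with hyperphyllin (6.36 ± 0.14).

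AUR2 was at 4.14, 3.68 and 3.39 on the DMSO arrays of wild type and at 3.96, 4.09 and 4.21 with hyperphyllin. In amp1-13 it was at 3.63, 4.62 and 4.09 in DMSO and at 4.35, 4.33 and 4.21 in hyperphyllin. The DMSO arrays of amp1-13 held both the highest value and one of the lowest, so the spread of AUR2 was widest there (SD 0.49). The means followed the same order as for AUR1, at 3.74, 4.08, 4.11 and 4.30. AUR2 lay above the array's median on 5 of 12 arrays, AUR1 on 12. Whether the probes tell these related kinase genes apart was not determined.

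MCM7 was at 6.65, 5.89 and 5.93 on the DMSO arrays of wild type and at 6.38, 6.21 and 6.33 with hyperphyllin. In amp1-13 it was at 6.60, 6.19 and 6.59 in DMSO and at 6.76, 6.79 and 6.75 in hyperphyllin. The 3 hyperphyllin arrays of amp1-13 were the highest of all 12 and lay close together (SD 0.02). The means, 6.16, 6.31, 6.46 and 6.77, again followed the order given for AUR1.

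HTR12 was at 4.53, 3.78 and 3.51 on the DMSO arrays of wild type and at 3.99, 3.67 and 3.59 with hyperphyllin. In amp1-13 it was at 3.93, 4.19 and 4.18 in DMSO and at 4.38, 4.25 and 4.42 in hyperphyllin. Its highest value was on DMSO array 1 of wild type, and all hyperphyllin arrays of amp1-13 came next. For HTR12 the lowest mean belonged to wild type with hyperphyllin (3.75 ± 0.22, SD, n = 3), followed by wild type with DMSO (3.94 ± 0.53), amp1-13 with DMSO (4.103 ± 0.15) and amp1-13 with hyperphyllin (4.35 ± 0.08). HTR12 lay above the array's median on 6 of 12 arrays and MCM7 on 12.

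**Figure D1:**
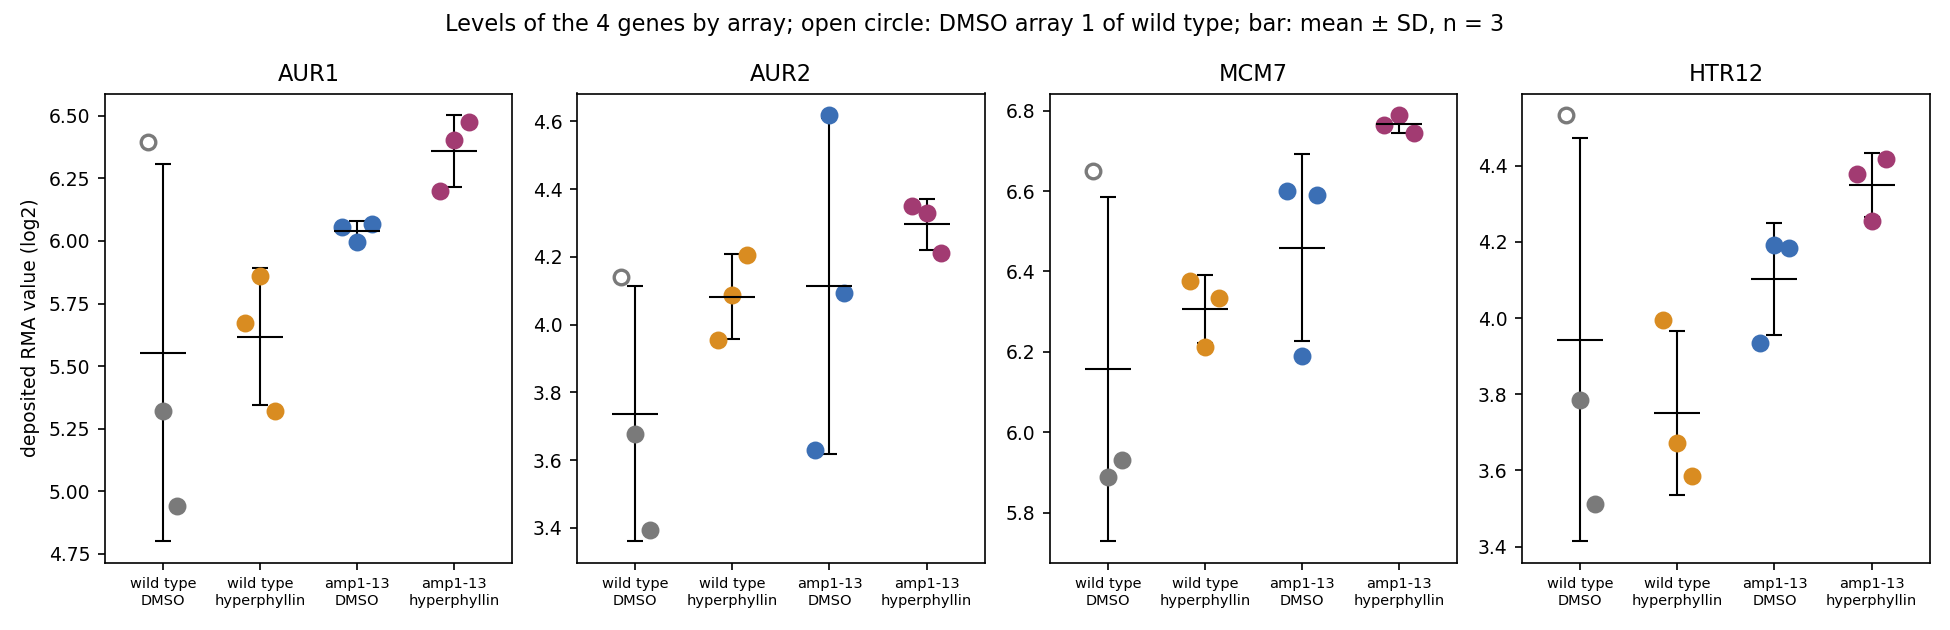
The deposited log2 value of AUR1, AUR2, MCM7 and HTR12 is plotted for each array by group, with the mean and SD of the 3 arrays as bars. In wild type with DMSO array 1 (open circle) lies above arrays 2 and 3 for all 4 genes, and the group with the highest mean is amp1-13 with hyperphyllin in each panel.

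All 4 genes had their highest mean in amp1-13 with hyperphyllin, as did 22.5% of all probe sets tested. Both amp1-13 means lay above both wild-type means for the 4 genes and for 16.6% of the probe sets. The full order seen for AUR1, AUR2 and MCM7 was shared by 5.62% of the probe sets. Without wild-type DMSO array 1 the mean of HTR12 in that group was 3.65, below the 3.75 with hyperphyllin, and all 4 genes had this order, as did 7.64% of the probe sets. No neighbouring groups in these orders differed past the threshold for any of the 4 genes.

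On DMSO array 1 of wild type the 4 genes lay above the mean of arrays 2 and 3 by 1.26 (AUR1), 0.61 (AUR2), 0.74 (MCM7) and 0.89 (HTR12). A gap of more than 0.5 was present in 9.99% of all probe sets, and 0.965% had a gap at least as large as that of AUR1. The like share was 2.83% for HTR12, 4.62% for MCM7 and 7.1% for AUR2. The marker lists also differed between these arrays. The summed root markers were at 51.2 on array 1 against 156 and 158 on arrays 2 and 3, the summed shoot meristem markers at 19.0 against 11.7 and 11.0, and the summed green tissue markers at 3506 against 3201 and 2978. The part of tissue composition in the levels of the 4 genes was not tested.

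The comparison of amp1-13 with wild type in hyperphyllin asks whether the mutant still differs when both genotypes receive the compound. For AUR1 all 3 amp1-13 arrays (6.20 to 6.48) lay above all 3 wild-type arrays (5.32 to 5.86), a difference of 0.74 ± 0.28 (SE, 3 arrays per group), or 1.67-fold. HTR12 was 0.60 ± 0.21 higher in amp1-13 (1.51-fold) and MCM7 0.46 ± 0.18 higher (1.38-fold). The groups did not overlap for either gene. AUR2 was 0.21 ± 0.23 higher, with the lowest amp1-13 array at 4.210 and the highest wild-type array at 4.206, so that the arrays of the genotypes only just separated.

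In this comparison the arrays did not overlap, with amp1-13 higher, for all 4 genes and for 11.4% of the probe sets tested. By limma 0 of the 4 passed, against 0.229% of all probe sets, with adjusted p values of 0.378 for AUR1, 0.338 for HTR12, 0.407 for MCM7 and 0.807 for AUR2. Unadjusted p values were under 0.05 for 3 genes: 0.0162 for HTR12, 0.0226 for AUR1 and 0.0272 for MCM7. The same held for 1754 of the 17504 probe sets. The median of the 4 differences was 0.53, and that of all probe sets 0.0024.

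DMSO array 1 of wild type belongs to neither of these groups, but it entered the shared estimate of the spread. Without it the differences were the same and their SE was smaller, and AUR1 (0.74 ± 0.14, limma adjusted p = 0.0206) and HTR12 (0.60 ± 0.13, adjusted p = 0.0302) were higher in amp1-13 past the threshold, as were 1.76% of all probe sets (3.3% in either direction). MCM7 then lay just outside it (0.46 ± 0.11, adjusted p = 0.051). With only the 6 hyperphyllin arrays in the fit, AUR1 (adjusted p = 0.0478) and MCM7 (adjusted p = 0.0449) passed and HTR12 did not. In that fit 375 of the 17504 probe sets were called, against 40 with 12 arrays. The summed shoot meristem markers moved the same way, with 18.0 to 23.2 in amp1-13 and 9.56 to 11.2 in wild type. With all arrays in the fit CLV3, the stem cell signal, differed by 1.49 ± 0.27 (limma adjusted p = 0.0511). LAS, a gene of axillary meristems, differed by 0.50 ± 0.14 in that fit (limma adjusted p = 0.206). Both markers passed when DMSO array 1 of wild type was left out (limma adjusted p = 0.0012 for CLV3 and 0.0218 for LAS). Their part in the result was not tested. The summed root markers overlapped, with 38.3 to 75.0 in amp1-13 and 47.2 to 69.8 in wild type. So did the summed green tissue markers, with 3933 to 4148 in amp1-13 and 3803 to 3953 in wild type.

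**Figure D2:**
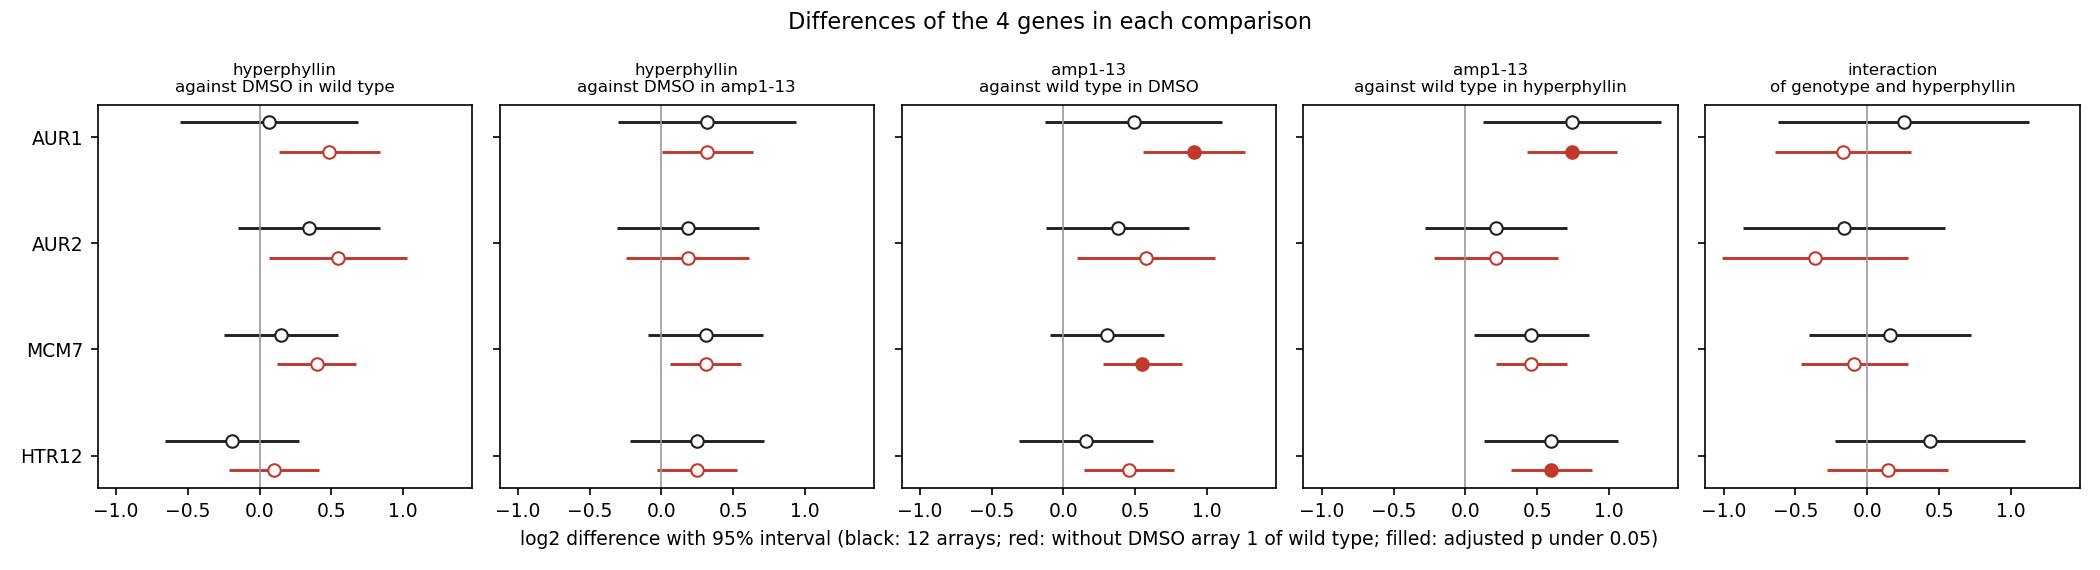
The log2 difference of each gene in 5 comparisons is plotted with its 95% interval, in black for the fit to 12 arrays and in red for the fit without wild-type DMSO array 1; filled points have an adjusted p under 0.05. No black point is filled, and the filled red points are AUR1 and MCM7 for amp1-13 against wild type in DMSO and AUR1 and HTR12 in hyperphyllin.

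Without the compound, amp1-13 had higher means than wild type for all 4 genes, and DMSO array 1 of wild type lay above at least 1 amp1-13 array for each of them. The groups were thus separate for 0 of the 4, against 6.91% of all probe sets with amp1-13 higher. The differences were 0.49 ± 0.28 for AUR1, 0.38 ± 0.23 for AUR2, 0.30 ± 0.18 for MCM7 and 0.16 ± 0.21 for HTR12 (SE, 3 arrays per group). By limma 0 of the 4 passed, against 0.326% of all probe sets, 0 had an unadjusted p under 0.05, and the adjusted p values ran from 0.421 to 0.759.

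When DMSO array 1 of wild type was left out, AUR1 in DMSO was 0.91 ± 0.16 higher in the mutant (limma adjusted p = 0.00278), or 1.88-fold. MCM7 was 0.55 ± 0.13 higher (limma adjusted p = 0.0124). HTR12 (0.46 ± 0.14, limma adjusted p = 0.0527) and AUR2 (0.58 ± 0.22, limma adjusted p = 0.105) did not pass. Those 2 genes that passed stand beside 7.15% of all probe sets called higher in the same fit (15.3% in either direction), a larger share than with 12 arrays. The arrays then did not overlap for AUR1, MCM7 and HTR12, nor for 17.6% of all probe sets with amp1-13 higher. The root markers EXPA7 (-1.12) and EXPA18 (-1.15) fell below wild type in that fit, and the green tissue genes LHCB4.1 (0.55), PSAE-1 (0.42) and CHLM (0.98) were higher. The shoot meristem markers CLV3 (0.48) and LAS (0.12) did not pass in that fit, nor with 12 arrays (0.11 and -0.05). The part of these tissues in the levels of AUR1 and MCM7 was not tested.

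Hyperphyllin in wild type, the comparison that asks what the compound alone does, changed none of the 4 genes past the threshold. AUR1 was at 0.07 ± 0.28, AUR2 at 0.35 ± 0.23, MCM7 at 0.15 ± 0.18 and HTR12 at -0.19 ± 0.21 (log2 difference from DMSO, SE, 3 arrays per group). By limma 0 of 4 passed, against 1.64% of all probe sets, and 0 had an unadjusted p under 0.05. The groups overlapped for all 4 genes, while 8.75% of all probe sets were higher without overlap. The 95% intervals were wide: from -0.55 to 0.68 for AUR1 and from -0.66 to 0.27 for HTR12. The shoot meristem markers were at lower means, unlike AUR1, AUR2 and MCM7. LAS was at -0.41 ± 0.14 without overlap and CLV3 at -0.34 ± 0.27, neither past the threshold.

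Without wild-type DMSO array 1 the differences with hyperphyllin in wild type were 0.49 ± 0.16 for AUR1 (limma adjusted p = 0.0696), 0.55 ± 0.22 for AUR2 (adjusted p = 0.134), 0.40 ± 0.13 for MCM7 (adjusted p = 0.059) and 0.10 ± 0.14 for HTR12 (adjusted p = 0.723). The arrays then did not overlap for AUR1, AUR2 and MCM7, nor for 17.9% of all probe sets with hyperphyllin higher. Again 0 of 4 passed, though 3 had an unadjusted p under 0.05, as did 26.3% of all probe sets, and 14% of all probe sets were called. HTR12 changed sign between these fits. AUR1 also did so, at -0.051 without DMSO array 2, at -0.24 without DMSO array 3 and at -0.056 without hyperphyllin array 2 of wild type, so the sign of its difference in wild type depended on which arrays were included. In the fit without DMSO array 1 the root markers EXPA7 and EXPA18 fell by 1.503 and 1.53, and 3 of the 4 measured green tissue genes rose, CHLM by 0.96, PSAE-1 by 0.61 and LHCB4.1 by 0.53. PSAE-1 also rose with 12 arrays (0.55 ± 0.10, limma adjusted p = 0.025). Without DMSO array 1 the shoot meristem marker LAS was at -0.23 ± 0.11, again lower without overlap, and CLV3 at 0.03 ± 0.18. Neither passed. The part of these tissues in the values of the 4 genes was not tested.

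In amp1-13, hyperphyllin was accompanied by higher means of all 4 genes, of 0.32 ± 0.28 for AUR1, 0.31 ± 0.18 for MCM7, 0.25 ± 0.21 for HTR12 and 0.18 ± 0.23 for AUR2 (SE, 3 arrays per group). For AUR1, MCM7 and HTR12 the hyperphyllin arrays all lay above the DMSO arrays of amp1-13, as they did for 8.22% of all probe sets. By limma 0 of 4 passed, against 0.0171% of all probe sets; 0 had an unadjusted p under 0.05, and the adjusted p values ran from 0.807 to 0.929. When wild-type DMSO array 1 did not enter the spread, 0 of 4 passed against 0.788% of all probe sets, and MCM7 had an unadjusted p of 0.0195 (limma adjusted p = 0.288) and AUR1 one of 0.0485 (limma adjusted p = 0.419). The summed shoot meristem markers were also higher, at 18.0 to 23.2 in hyperphyllin and 13.0 to 14.1 in DMSO. CLV3 separated the groups (1.04 ± 0.27, limma adjusted p = 0.249, and 0.0173 without wild-type DMSO array 1). For LAS the groups overlapped (0.15 ± 0.14). The other marker sums overlapped. Green tissue was at 3933 to 4148 in hyperphyllin and 3644 to 3948 in DMSO, and root at 38.3 to 75.0 and 64.7 to 75.6. The part of these markers was not tested.

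The interaction asks whether the response to hyperphyllin differed between the genotypes. It was 0.25 ± 0.40 for AUR1, -0.16 ± 0.32 for AUR2, 0.16 ± 0.26 for MCM7 and 0.44 ± 0.30 for HTR12 (SE, 12 arrays), with limma adjusted p values from 0.746 to 0.926. By limma 0 of 4 passed, as did 0% of all probe sets, and 0 of the 4 had an unadjusted p under 0.05. Without wild-type DMSO array 1 AUR1 (-0.17) and MCM7 (-0.09) changed sign and 0 of 4 passed, while 2.75% of all probe sets did.

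Wild type with hyperphyllin was also set against amp1-13 with DMSO, the chemical against the genetic condition. All 4 genes had lower means in treated wild type, with differences of -0.42 ± 0.28 for AUR1, -0.35 ± 0.21 for HTR12, -0.15 ± 0.18 for MCM7 and -0.03 ± 0.23 for AUR2 (SE, 3 arrays per group). By limma 0 of 4 passed, against 1.01% of all probe sets, and 0 had an unadjusted p under 0.05. For AUR1 the arrays did not overlap, at 5.32 to 5.86 in treated wild type and 5.996 to 6.07 in amp1-13, and the same held for 11.3% of all probe sets in that direction. The summed shoot meristem markers also lay lower without overlap, at 9.56 to 11.2 in treated wild type and 13.0 to 14.1 in amp1-13 with DMSO (CLV3 -0.45 ± 0.27, LAS -0.35 ± 0.14, neither past the threshold). The other summed markers overlapped, green tissue at 3803 to 3953 and 3644 to 3948, and root at 47.2 to 69.8 and 64.7 to 75.6. Their part in the result was not tested. Without wild-type DMSO array 1, 0 of 4 passed, against 3.62% of all probe sets. The difference of AUR1 then had an unadjusted p of 0.013 (limma adjusted p = 0.159) and that of HTR12 one of 0.0181 (limma adjusted p = 0.188).

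Of 122 other cell division genes written in 6 lists, 16 were measured by a probe set with 1 gene. For AUR3, the third Aurora kinase, and WYR, a gene related to the INCENP partner of Aurora kinases in animals and yeast, and for ICU2, which encodes the catalytic subunit of DNA polymerase alpha, the tables gave a symbol. They also did so for BUB3.1 and BUBR1, genes of the spindle checkpoint, and for SIM, which encodes an inhibitor of cyclin-dependent kinases. The other 10 carried a locus code only and are given without a role. None of the other MCM subunits and none of the 30 cyclin and kinase genes had a named probe set.

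With hyperphyllin in wild type 1 of the 16 listed genes rose and 0 fell, beside 1.64% of all probe sets called. This was AT3G08880 of the kinetochore list, at 4.95, 5.13 and 5.17 on the DMSO arrays and 5.53 or above on the hyperphyllin arrays, a difference of 0.61 ± 0.12 (limma adjusted p = 0.0292). It was one of the few listed genes whose value on DMSO array 1 was below both other arrays. Its call was lost without any one of DMSO arrays 2 and 3 and hyperphyllin arrays 1, 2 and 3 of wild type (limma adjusted p from 0.0518 to 0.145). It was also lost over all probe sets (limma adjusted p = 0.0569), with the replicate block (limma adjusted p = 0.0503) and with only the wild-type arrays in the fit (limma adjusted p = 0.0814). Without wild-type DMSO array 1, 4 of the 16 rose and 1 fell, beside 14% of all probe sets called in that fit. Among those that rose were BUB3.1 (0.41, limma adjusted p = 0.0349) and BUBR1 (0.48, limma adjusted p = 0.0456).

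Between the genotypes in DMSO 0 of the 16 listed genes passed, with 10 at higher and 6 at lower means in amp1-13 and a median of 0.115, against -0.0394 over all probe sets. Of all probe sets 42% had a higher mean in amp1-13. Without wild-type DMSO array 1, 4 rose and 1 fell, beside 15.3% of all probe sets called in that fit against 0.326% with 12 arrays. AT2G28620 was 0.67 ± 0.14 higher in amp1-13 (limma adjusted p = 0.00825), BUBR1 0.57 ± 0.14, WYR 0.52 ± 0.16 and BUB3.1 0.42 ± 0.12, and SIM was at -0.85 ± 0.22 (limma adjusted p = 0.0202). With 12 arrays SIM was at -0.51 ± 0.27 and WYR at 0.11 ± 0.28, both without passing.

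In hyperphyllin 0 of the 16 listed genes passed between the genotypes, with 10 higher and 6 lower and a median of 0.196. Over all probe sets 0.229% were called, 50.6% had a higher mean in amp1-13 and the median was 0.0024. AT2G28620 lay nearest, at 0.58 ± 0.19 (limma adjusted p = 0.287). It passed without wild-type DMSO array 1 (limma adjusted p = 0.0342), as did 3.3% of all probe sets. BUBR1 was at 0.23 ± 0.20, AUR3 at -0.03 ± 0.18 and SIM at -0.35 ± 0.27. AUR3 thus lay near 0 where AUR1 was at 0.74, though the difference between these genes was not tested. With hyperphyllin in amp1-13 0 of the 16 passed, 11 higher and 5 lower, with a median of 0.128. Over all probe sets 0.0171% were called there, 49.6% had a higher mean and the median was -0.0014.

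**Figure D3:**
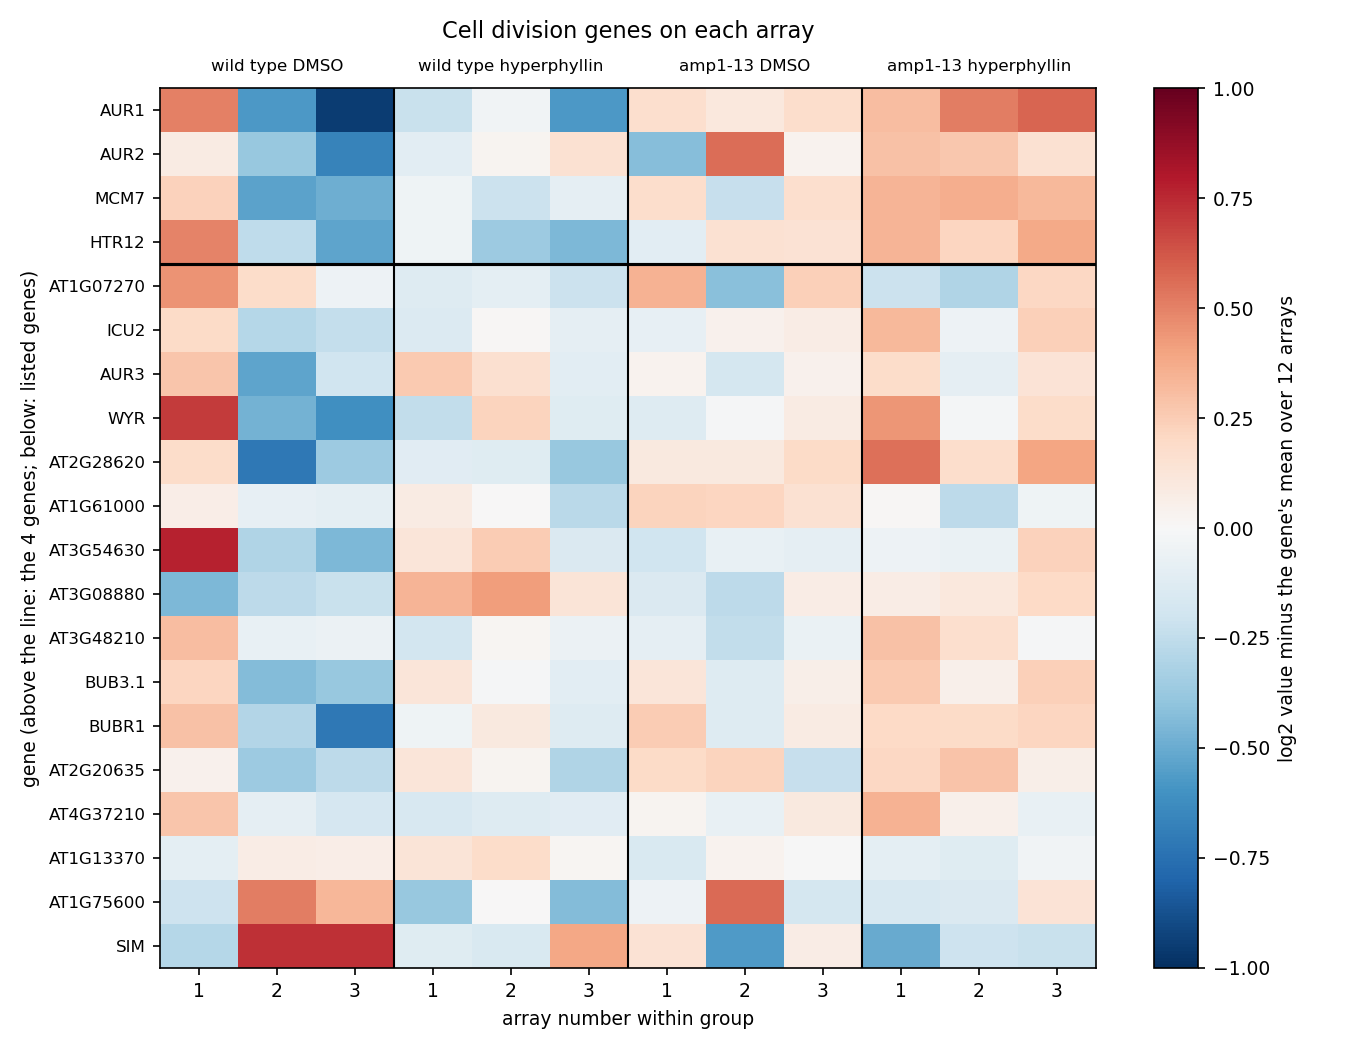
The log2 value minus the gene's mean over the 12 arrays is shown by colour for the 4 genes (above the line) and 16 listed cell division genes (below), with arrays grouped by condition. On DMSO array 1 of wild type 12 of the 16 listed genes are above both other arrays of the group and 4 are below both.

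DMSO array 1 of wild type lay above both other arrays of its group for 12 of the 16 listed genes, as for 40.2% of all probe sets, and below both for 4. WYR was 1.24 above the mean of the other arrays, BUBR1 0.80, AUR3 0.64 and BUB3.1 0.62, and SIM was at -1.01. The inhibitor gene SIM thus lay on the opposite side from these kinase and checkpoint genes on this array. So did AT3G08880 of the kinetochore list (-0.21) and AT1G75600 (-0.63) and AT1G13370 (-0.17) of the histone H3 list. On the DMSO arrays of wild type AT1G75600 was at 1.87 to 2.60 and AT1G13370 at 1.42 to 1.59, well below the array medians. SIM was the only measured gene of the 24 in its list.

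Among the 4 genes, AUR1 and HTR12 varied together most closely over the 12 arrays (Pearson r = 0.889, Spearman rho = 0.888, permutation p adjusted over 6 pairs 8.4e-04 and 0.00108). AUR1 and MCM7 followed (r = 0.865, rho = 0.888, adjusted permutation p 0.00132 and 0.00117), then MCM7 and HTR12 (r = 0.767, rho = 0.741, adjusted permutation p 0.00956 and 0.0158). Without the 2 arrays farthest from the median of the first gene of a pair, r was 0.858, 0.733 and 0.683. Without the wild-type DMSO group it was 0.841, 0.723 and 0.684 over 9 arrays.

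AUR2 had lower correlations with the others: r = 0.615 and rho = 0.601 for AUR1 (adjusted permutation p 0.0498 and 0.052), r = 0.591 and rho = 0.643 for HTR12 (adjusted permutation p 0.0517 and 0.0415) and r = 0.486 and rho = 0.490 for MCM7 (adjusted permutation p 0.111 and 0.11). Its r with AUR1 was 0.155 without the 2 arrays farthest from the median of AUR1, so that relation rested on those arrays. Without the 2 arrays farthest from the median of AUR2, r was 0.446 with HTR12 and 0.589 with MCM7. Without the wild-type DMSO group the r of AUR2 was 0.176 with AUR1, 0.384 with HTR12 and -0.095 with MCM7 over 9 arrays. The arrays share their group, and the permutations do not separate group means from variation within groups. After the group means were taken out, r was 0.859 for AUR1 with HTR12, 0.749 for AUR1 with MCM7, 0.695 for MCM7 with HTR12, 0.607 for AUR2 with HTR12, 0.453 for AUR1 with AUR2 and 0.132 for AUR2 with MCM7. Those values include wild type with DMSO, the group with the widest spread for AUR1 (SD 0.75), HTR12 (0.53) and MCM7 (0.43). In the other groups the SD was at most 0.27, 0.22 and 0.23. Correlation within groups was not computed without wild type with DMSO. The r over 9 arrays still holds differences between group means, so whether the genes vary together within the other groups was not tested.

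**Figure D4:**
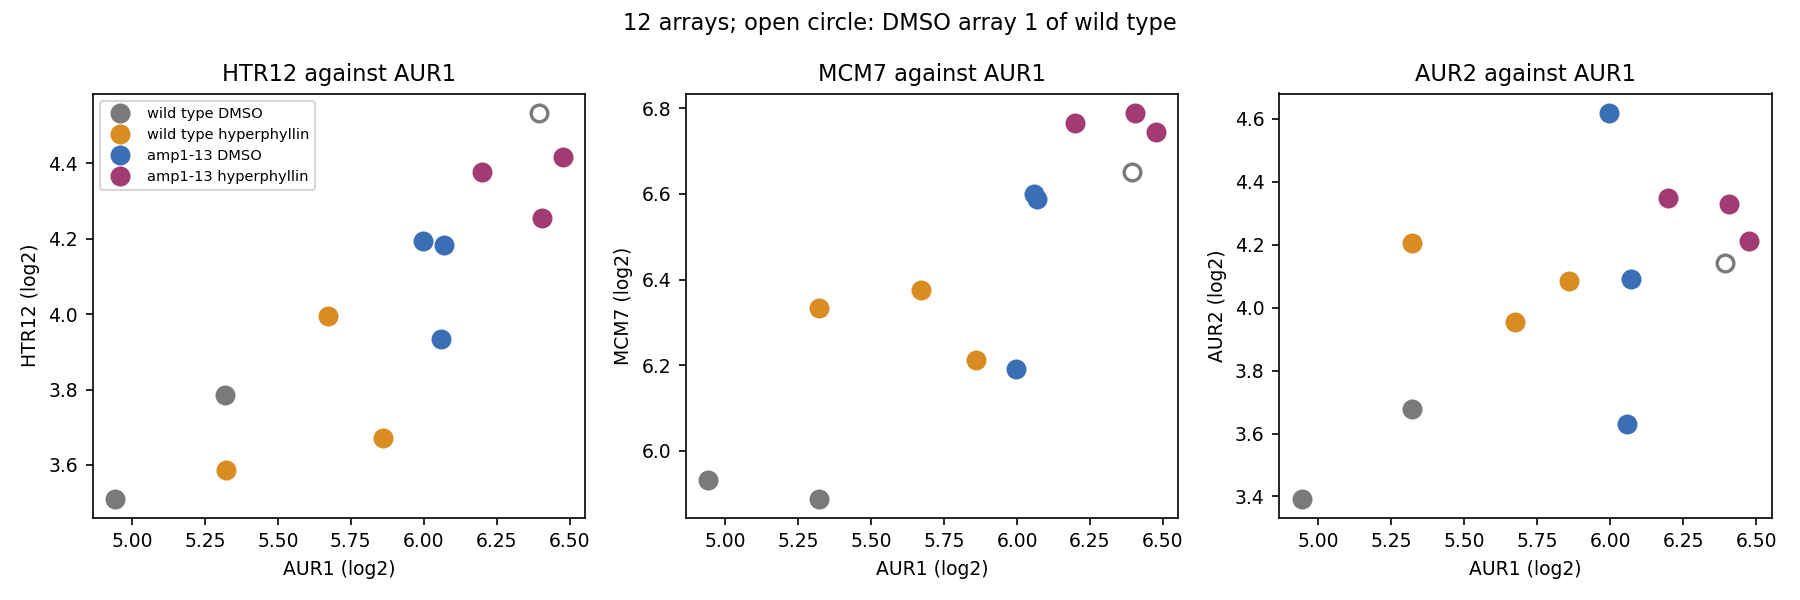
The log2 values of HTR12, MCM7 and AUR2 are plotted against AUR1, with 1 point per array coloured by group. DMSO array 1 of wild type (open circle) lies near the hyperphyllin arrays of amp1-13 in all panels, and the points scatter most for AUR2 (r = 0.615).

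The probe sets with 1 gene whose values were most like those of each gene over the 12 arrays mostly carried a locus code only. For HTR12 they were AT2G16270 (Pearson r = 0.947), RAD9 (0.944), named after a checkpoint gene of DNA damage in yeast and animals, and AT5G20060 (0.944). For MCM7 they were AT3G05910 (0.953), the tetraspanin gene TET10 (0.952) and AT4G21770 (0.952). AUR1 was followed most closely by AT2G34190 (0.969), AT1G10640 (0.956) and AT5G09995 (0.956), and AUR2 by AT2G43530 (0.922), AT1G35430 (0.922) and AT2G23120 (0.919). These are the highest of the values over all probe sets with 1 gene and serve only as a description. Without the wild-type DMSO group the 12 values of r were between 0.882 and 0.95 over 9 arrays.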

How the data were processed

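The deposited values are log2 expression values that the authors made with RMA, per the submitters' processing notes. As usually run, RMA combines a background correction, a normalization between arrays and a summary per probe set. Its software, version and probe definitions are not given in the sources used here. Scanner intensities were not analysed here, so signal over background is unknown, and the number of arrays limits the precision. Nothing was rescaled or filtered. Genes were matched by gene ID to RefSeq (TAIR10.1), which was used for names only. limma 3.58.1 in R 4.3.3 fitted a mean per group to 12 arrays over 17504 probe sets (lmFit and eBayes, leaving 8 residual degrees of freedom), and the fit was first tested on simulated data. Marker sums are sums of linear values. Pair correlations used 100000 permutations, two-sided.

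The 4 genes and the lists were chosen with earlier results of these data known. Named genes were the 4 genes, list genes that passed or had the smallest p values, and for each gene the 3 most like probe sets. 1 measured list gene whose table symbol differed was left out. Alternatives were other probe sets tested, a filter on dim probe sets, renormalization, other variance settings, array weights, fewer groups, a replicate block and leaving out each array. The counts over all probe sets under each alternative, and the order of group means without wild-type DMSO array 1, were added after seeing the data. Same-numbered arrays deviated together (r over 0.1) in 4 of 18 pairs, with r from -0.281 to 0.295. Arrays with different numbers were not compared, so whether the numbers pair the samples was not determined. The main fit did not pair them.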

Additional observations from a re-analysis of the deposited data

How the results depend on the processing

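The 4 genes were called in none of the 6 comparisons with 12 arrays, and this held under other probe sets, the dim filter (9213 probe sets), quantile normalization, median centring, trend and robust moderation and the replicate block. Array weights, which gave DMSO array 1 of wild type 0.196, called 2 genes between genotypes in DMSO (AUR1 0.75, MCM7 0.57) and 3 in hyperphyllin (AUR1 0.71, MCM7 0.47, HTR12 0.60). Of all 17504 probe sets, array weights called 2663 between genotypes in DMSO and 569 in hyperphyllin. With only the groups compared, 2 were called in hyperphyllin (AUR1 0.74, MCM7 0.46), beside 375 of all probe sets. Array weights also turned the interaction of AUR1 (-0.038) and MCM7 (-0.10) and the difference of AUR2 between treated wild type and amp1-13 in DMSO (0.086).

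With 1 array left out in turn, between 0 and 2 genes were called in each genotype comparison, the 2 only without DMSO array 1 of wild type, and 0 in the others. Ranges in DMSO between genotypes were 0.18 to 0.91 for AUR1, 0.12 to 0.62 for AUR2, 0.17 to 0.55 for MCM7 and -0.056 to 0.46 for HTR12, and -0.13 to 0.52 for WYR. In hyperphyllin they were 0.59 to 0.86 for AUR1, 0.52 to 0.72 for HTR12 and -0.13 to 0.055 for AUR3. For hyperphyllin in wild type they were -0.24 to 0.49 for AUR1, 0.17 to 0.55 for AUR2, 0.016 to 0.40 for MCM7, -0.41 to 0.10 for HTR12 and -0.025 to 0.48 for BUBR1, and in amp1-13 -0.059 to 0.44 for AUR2 and 0.17 to 0.38 for MCM7. The interaction ran from -0.17 to 0.56 for AUR1, -0.40 to 0.090 for AUR2 and -0.090 to 0.29 for MCM7, and treated wild type against amp1-13 in DMSO from -0.27 to 0.22 for AUR2. The causes were not tested.

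The replicate block left all 4 genes uncalled and moved the probe sets called from 287 to 189 with hyperphyllin in wild type, 57 to 2 between genotypes in DMSO and 40 to 15 in hyperphyllin. Array weights gave 3026, 2663 and 569, 102 against 3 with hyperphyllin in amp1-13, 290 against 0 for the interaction and 845 against 177 for treated wild type against amp1-13 in DMSO. Leaving out 1 array gave 23 to 2449, 0 to 2672, 1 to 577, 2 to 138, 0 to 482 and 39 to 633, in the same order. With only the groups compared, the counts past 1.5 times were 0 between genotypes in DMSO, 375 in hyperphyllin, 38 and 442; over all probe sets they were 27, 26, 10 and 272 there. The dim filter gave 150 in DMSO between genotypes and 20 with hyperphyllin in amp1-13, trend and robust moderation 116, 63 in hyperphyllin and 32, and quantile normalization 11 in DMSO. No gene had a second probe set to try.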
